A study of Homo sapiens with 16 samples.

Results

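Subtelomeric open regions are the places next to the chromosome ends where transposase could cut the DNA of human lung fibroblasts. The peaks of 16 ATAC-seq libraries on the 22 autosomes were pooled and intervals that overlapped by at least 1 bp were merged. Of the 346781 merged regions, 291731 had a peak in at least 2 libraries. A region was called subtelomeric when its midpoint lay in the first 3 Mb of a chromosome or within 3 Mb of the largest peak end found on it. By this rule 17648 of the 291731 regions were subtelomeric, and the other 274083 are the remaining autosomal regions. They came from 39 chromosome ends, since no region lay in the outer 3 Mb of the short arms of chromosomes 13, 14, 15, 21 and 22. Beside position the rule asked for a peak in any 2 of the 16 libraries, whatever their group, so a region open in 1 Raf state alone could enter. Of the subtelomeric regions 41.8% had peaks in Raf-active libraries only, and 5.81% in Raf-inactive ones only.

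ATAC-seq marks open chromatin by the insertion of sequencing adapters by the Tn5 transposase. The cells were IMR90, a line of human fetal lung fibroblasts, all infected with a retrovirus for ΔB-RAF:ER, a kinase that 4-hydroxytamoxifen (4-OHT) switches on. The 4 groups of 4 libraries were Raf-inactive or Raf-active, each kept either in normoxia or in hypoxia at 0.5% O2. A change with Raf and a change with hypoxia are measured against libraries that they share. Raf-active cells are the study's model of oncogene-induced senescence, and the design asks how hypoxia changes chromatin accessibility in it. The labels give one treatment text for all 4 groups, so what the Raf-inactive cells received in place of 4-OHT is not stated, and an effect of the drug alone cannot be told apart from that of the kinase. The cells are 1 line, the labels give no time of treatment, and they do not say whether the replicates were cultured apart. The p-values therefore cover the spread among these libraries, which may be technical.

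Human chromosome ends carry telomere repeats, and inward of these lie subtelomeric blocks of sequence shared between chromosomes, followed by unique sequence that is often rich in genes, GC and recombination. Telomeres can fold back on the neighbouring DNA and can silence nearby genes, an effect known as telomere position effect. Fibroblasts lack telomerase activity and shorten their telomeres as they divide, whereas senescence started by an oncogene does not need that shortening.

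Each library listed between 164782 and 201588 distinct autosomal peaks, and the read depth itself is not in the files used here. The background pileup that could be computed back from each peak's fold and p-value was 3.23 ± 0.241 in Raf-inactive normoxia, 6.75 ± 0.453 in Raf-active normoxia, 4.79 ± 0.191 in Raf-inactive hypoxia and 7.32 ± 0.752 in Raf-active hypoxia (SD, n = 4). It moved with the Raf state, and results are therefore also given at a background matched to the lowest library, an alternative chosen after seeing the data. Of the 7 fibroblast marker genes with a promoter window, 5, such as COL6A2 and PDGFRB, held a promoter peak in all 16 libraries and POSTN in 0. PDGFRA held one in 4 and 3 of the 4 Raf-inactive and Raf-active normoxia libraries and in 4 and 0 of those in hypoxia. Of the lung fibroblast markers, TBX5 held one in all 8 Raf-inactive libraries and in 1 of the 8 Raf-active ones, and TBX4 in 0. TBX5 thus moved with the Raf state, and its part in the results was not tested. The promoters of the blood marker PTPRC and of the epithelial markers KRT5 and CLDN7 held a peak in 0 libraries. The neuronal markers SYT1 and RBFOX3 held one in all 16, which says that a promoter was open and not that the gene was expressed. Of the 2 endothelial markers EGFL7 held one in 0 libraries and TEK in 9. TEK held it in 4 and 0 of the 4 Raf-inactive and Raf-active normoxia libraries and in 3 and 2 of those in hypoxia.

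The promoters below are shown because they lie in the subtelomeric ends and changed between closed and open with Raf in both oxygen states. A promoter here is a RefSeq window of GRCh38.p14 from 250 bases before to 50 bases after the start of a protein-coding gene. It counted as gained when all 4 Raf-active and none of the 4 Raf-inactive libraries had an overlapping peak, and as lost in the opposite case. RefSeq windows were at hand for 1276 subtelomeric genes and 13825 others. In normoxia 30 of the 1276 were gained with Raf, where 1.36% of all promoter windows were, and 3 were lost, where 0.861% were. In hypoxia 25 were gained, where 1.48% of all were, and 3 were lost, where 0.589% were. Gained in both oxygen states were 11, and 1 was lost in both, where 75 and 45 of the 13825 other promoters were. The 4 of the 11 whose peaks ranked highest by the authors' p-value within their libraries are those of CEMP1, a gene of cementum, NADK, the kinase that makes NADP, CCDC78, a coiled-coil protein gene, and NPLOC4, a cofactor of the VCP ATPase. The 1 lost is that of SLC19A1, the reduced folate carrier. The 250 bases before each start are printed 5′ to 3′ on the gene's strand, which is minus for these 5 genes. Capitals mark matches on either strand to 5 motifs, namely TGANTCA of AP-1, CCGGAA of ETS factors, ACGTG of the hypoxia response, GGGCGG of Sp1 and the telomere repeat TTAGGG.
CEMP1 (chr16:2531409-2531658): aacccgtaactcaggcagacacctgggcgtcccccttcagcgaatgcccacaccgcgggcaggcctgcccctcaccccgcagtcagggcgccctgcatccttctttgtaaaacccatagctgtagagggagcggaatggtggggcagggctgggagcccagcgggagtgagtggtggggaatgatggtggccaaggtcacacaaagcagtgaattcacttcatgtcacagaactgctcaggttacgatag
NADK (chr1:1780032-1780281): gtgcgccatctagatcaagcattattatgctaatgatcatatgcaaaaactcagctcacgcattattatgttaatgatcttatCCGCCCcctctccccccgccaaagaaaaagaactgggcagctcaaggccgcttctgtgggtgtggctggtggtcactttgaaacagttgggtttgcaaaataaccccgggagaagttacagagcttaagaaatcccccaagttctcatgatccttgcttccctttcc
CCDC78 (chr16:726444-726693): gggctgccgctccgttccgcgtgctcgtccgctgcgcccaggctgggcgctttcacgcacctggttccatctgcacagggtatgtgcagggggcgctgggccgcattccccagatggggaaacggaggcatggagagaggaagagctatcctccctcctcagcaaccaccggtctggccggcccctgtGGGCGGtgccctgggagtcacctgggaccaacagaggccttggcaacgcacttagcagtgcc
NPLOC4 (chr17:81577434-81577683): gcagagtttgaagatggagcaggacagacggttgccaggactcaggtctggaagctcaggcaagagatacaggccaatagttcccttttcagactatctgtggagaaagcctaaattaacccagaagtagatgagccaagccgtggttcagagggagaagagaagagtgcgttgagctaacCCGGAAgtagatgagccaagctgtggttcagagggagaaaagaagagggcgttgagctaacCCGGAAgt
SLC19A1 (chr21:45563026-45563275): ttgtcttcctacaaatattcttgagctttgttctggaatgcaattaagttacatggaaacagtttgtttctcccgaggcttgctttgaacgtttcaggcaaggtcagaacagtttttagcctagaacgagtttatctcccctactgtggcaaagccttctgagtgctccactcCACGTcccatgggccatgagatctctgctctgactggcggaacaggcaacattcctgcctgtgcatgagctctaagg
CEMP1 held none of the 5 motifs, NADK and CCDC78 each held GGGCGG or its complement, NPLOC4 held CCGGAA, and SLC19A1 held ACGTG as its reverse complement. Their GC content was 60% for CEMP1, 47% for NADK, 67% for CCDC78, 51% for NPLOC4 and 47% for SLC19A1, below the subtelomeric median of 69.3% for the whole windows. Over the 30 subtelomeric promoters gained in normoxia the median was 68.5%, and over the 25 gained in hypoxia 67.0%. The remaining promoters had a median of 62.3% GC. Among the 30 subtelomeric promoters gained in normoxia, GGGCGG was in 56.7% and TGANTCA in 10%, the latter being 3 promoters. The shares in all 15101 promoter windows were 58.9% and 5.7%, and in the 1276 subtelomeric ones 70.1% and 3.92%. Among the 25 gained in hypoxia they were 72% and 4%. CCGGAA was in 10% of the 30 and in 23.1% of all windows, ACGTG in 10% and 23.6%, and TTAGGG in 10% and 8.73%. In the 1276 subtelomeric windows these 3 were in 25.1, 22.8 and 7.29%, and among the 25 in 8, 8 and 4%. A match describes the letters only.

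With Raf in normoxia the subtelomeric share of open regions rose. Of each library's autosomal regions, 4.80, 4.87, 4.83 and 4.83% were subtelomeric in the 4 Raf-inactive libraries, and 7.46, 7.31, 7.07 and 7.02% in the 4 Raf-active ones. Every Raf-active library lay above every Raf-inactive one. The means were 4.83 ± 0.0269% and 7.21 ± 0.207% (SD, n = 4), a difference of 2.38 percentage points, with p = 0.0286 in a two-sided exact permutation test, the smallest that 4 against 4 allows. The number of subtelomeric regions with a peak went from 7697 ± 95.7 to 12974 ± 552, a rise of 5277 (two-sided exact permutation p = 0.0286). In other terms, 43.6 ± 0.542% of the subtelomeric regions had a peak in a Raf-inactive library and 73.5 ± 3.13% in a Raf-active one. The remaining autosomal regions went from 55.3 ± 0.635% to 60.9 ± 1.62%.

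The same held in hypoxia, in libraries that the normoxia comparison did not use. The shares were 4.63, 4.65, 4.57 and 4.64% in the 4 Raf-inactive libraries and 6.69, 6.67, 6.72 and 6.72% in the 4 Raf-active ones, again without overlap. The means were 4.62 ± 0.0356% and 6.70 ± 0.0261% (SD, n = 4), a difference of 2.08 percentage points (two-sided exact permutation p = 0.0286). The number of regions rose from 7204 ± 173 to 12193 ± 306. A peak was present in 40.8 ± 0.981% of the subtelomeric regions without Raf and in 69.1 ± 1.73% with it, and in 54.2 ± 0.914% and 62.0 ± 1.35% of the remaining ones.

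**Figure D1:**
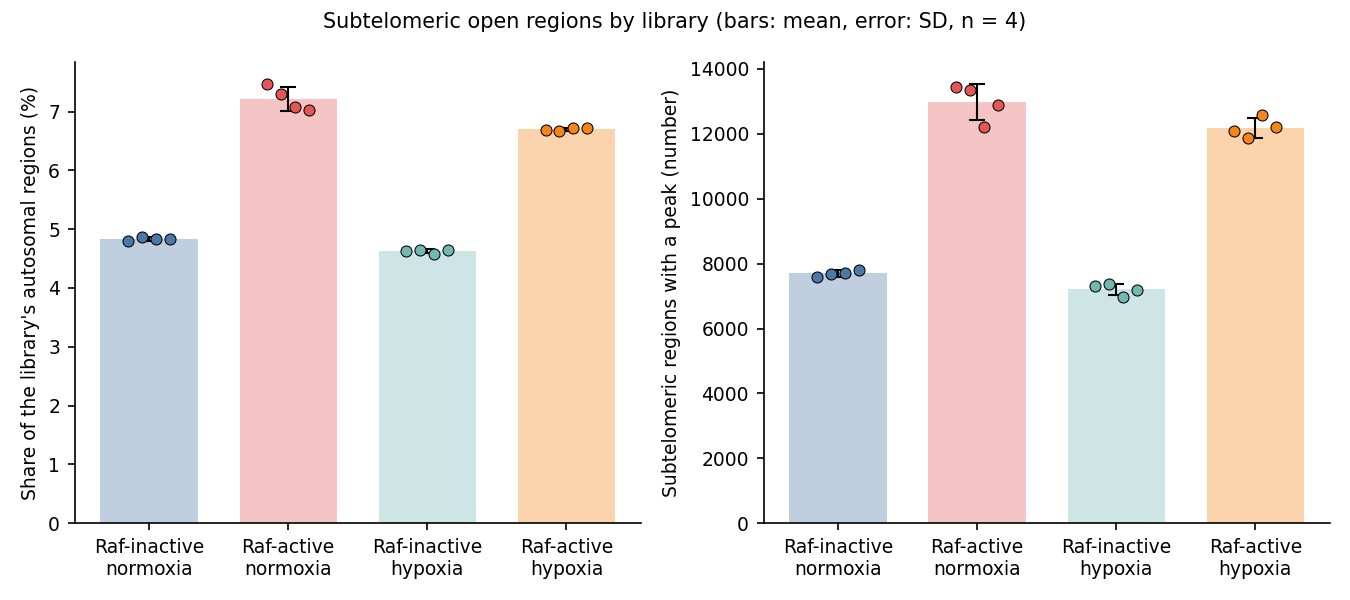
Subtelomeric share of each library's autosomal regions in percent (left) and number of subtelomeric regions with a peak (right) in the 4 groups. Points are libraries, bars the mean and error bars the SD of 4, and the Raf-active libraries sit between 6.67% and 7.46%, above the Raf-inactive ones at 4.57% to 4.87%.

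Hypoxia moved the share the other way by a smaller amount. In Raf-inactive cells it fell by 0.212 percentage points, from 4.83% to 4.62%, and in Raf-active cells it fell by 0.516, from 7.21% to 6.70% (each two-sided exact permutation p = 0.0286). The libraries of hypoxia and normoxia did not overlap in either Raf state. The number of regions fell by 493 in Raf-inactive cells (exact permutation p = 0.0286). In Raf-active cells the mean was -781, but the libraries overlapped (p = 0.0857 by the exact test). The change with Raf was 0.305 points smaller in hypoxia than in normoxia, which did not pass the exact permutation test (p = 0.219). Over these 10 tests the Benjamini-Hochberg adjusted p was 0.0408 for the 4 shares and 0.244 for the difference between the oxygen states.

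At a matched background the rises with Raf were 1.99 and 1.74 percentage points and the changes with hypoxia -0.220 and -0.474, each with p = 0.0286 in the exact permutation test. Among peaks with a fold enrichment of at least 5, as the authors' files give it, the rises were smaller, at 1.29 and 1.17 points for the 2 oxygen states, and hypoxia gave changes of -0.115 and -0.239. The subtelomeric peaks listed in Raf-active libraries had a lower median fold. Each median covers the peaks that its library lists, so the same peaks were not compared, and the background differed as well. The subtelomeric median was 6.85 ± 0.0426 without Raf and 5.02 ± 0.206 with it in normoxia, while peaks in the remaining regions went from 6.98 ± 0.0866 to 6.26 ± 0.225 (SD, n = 4). In hypoxia the subtelomeric median went from 7.54 ± 0.264 to 5.23 ± 0.0702.

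Region by region, gains outnumbered losses. A region was gained when all 4 Raf-active and none of the 4 Raf-inactive libraries had a peak in it, and lost in the opposite case. In normoxia 3403 subtelomeric regions, 19.3%, were gained, where 14.2% of all 291731 regions were. Lost were 561, or 3.18%, where 10.6% of all regions were. In hypoxia 3329, or 18.9%, were gained, where 13.9% of all were, and 403, or 2.28%, were lost, where 8.81% of all were. Both oxygen states gained 1716 of them, 50.4% of the normoxia list and 51.5% of the hypoxia list, where the remaining regions had 49.3% and 50.5%. Both lost 214, which is 38.1% of those lost in normoxia and 53.1% of those lost in hypoxia, where the remaining regions had 51.1% and 61.6%. With peaks of fold at least 5 alone, 1464 and 1363 of 8725 subtelomeric regions were gained, 16.8% and 15.6%, where 13.4% and 12.5% of the remaining ones were. Lost were 556 and 503, 6.37% and 5.77%, where 14% and 13% of the remaining ones were. When a peak in at least 3 of 4 libraries against at most 1 of 4 was enough, 5571 and 5017 of the 17648 were gained, 31.6% and 28.4%, where 21.4% and 20.2% of the remaining ones were.

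Across all 16 libraries, 26.3% of the subtelomeric regions had a peak in every one, and so did 26.4% of the remaining regions. The sets differed in regions open in only 1 Raf state. Set against the 41.8% of subtelomeric regions with peaks in Raf-active libraries only, 27.3% of the remaining regions were of that class. In the opposite class the remaining regions had 19.4%, where the subtelomeric ones had 5.81%. The median width was 496 bp in the subtelomeric and 470 bp in the remaining set.

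With hypoxia few subtelomeric regions changed. In Raf-inactive cells 113 were gained, 0.64%, where 1.47% of all regions were, and 219 were lost, 1.24%, where 1.61% of all were. In Raf-active cells 407 were gained, 2.31%, where 3.62% of all were, and 657 were lost, 3.72%, where 3.1% of all were. Peaks of fold at least 5 alone gave 140 lost without Raf, 1.6%, and 330 with it, 3.78%, where 1.97% and 3.19% of the remaining regions were.

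By place, the gained percentage was lowest near the ends of genes. Of the subtelomeric regions 13.5% lay within 1 kb of an end of a protein-coding gene, against 8.3% of the remaining ones. With Raf in normoxia 12.6% of those regions were gained and 0.8% were lost. Elsewhere in a protein-coding gene lay 52.3% of the subtelomeric regions, of which 19.6% were gained and 3.99% lost. Outside protein-coding genes lay 34.3%, of which 21.5% were gained and 2.88% lost. In hypoxia the gained percentages were 11.2, 19.3 and 21.2. The remaining regions had the same order, with 10.2, 13.6 and 14.9% gained in normoxia and 8.79, 13.2 and 15% in hypoxia.

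The rise with Raf was graded by distance from the chromosome end. With Raf in normoxia the mean share of regions rose 1.52-fold in the outer 0.5 Mb, 1.47-fold from 0.5 to 1 Mb, 1.53-fold from 1 to 2 Mb and 1.45-fold from 2 to 3 Mb. Farther in it rose 1.33-fold from 3 to 5 Mb, 1.22-fold from 5 to 10 Mb and 1.07-fold from 10 to 20 Mb, and beyond 20 Mb it was 0.908 times as high. Lost regions showed the gradient most, with 2.76% lost in the outer 0.5 Mb and 12.7% beyond 20 Mb, while the gained percentage went from 20.2 to 12.8. In hypoxia the lost percentage went from 2.11 to 10.7 and the gained from 18.2 to 12.3. The ratio of shares varied little within the outer 3 Mb, between 1.45 and 1.53 in normoxia and between 1.43 and 1.48 in hypoxia. From 3 to 5 Mb it was lower, at 1.33 and 1.32, and it declined farther in. Lost and gained percentages changed little across the 3 Mb limit in normoxia. From 2 to 3 Mb they were 4.12 and 19.2, and from 3 to 5 Mb they were 4.69 and 18.3. In the outermost 0.1 Mb, where sequence is often duplicated between chromosomes, 18.3% of 409 regions were gained and 2.93% lost in normoxia.

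**Figure D2:**
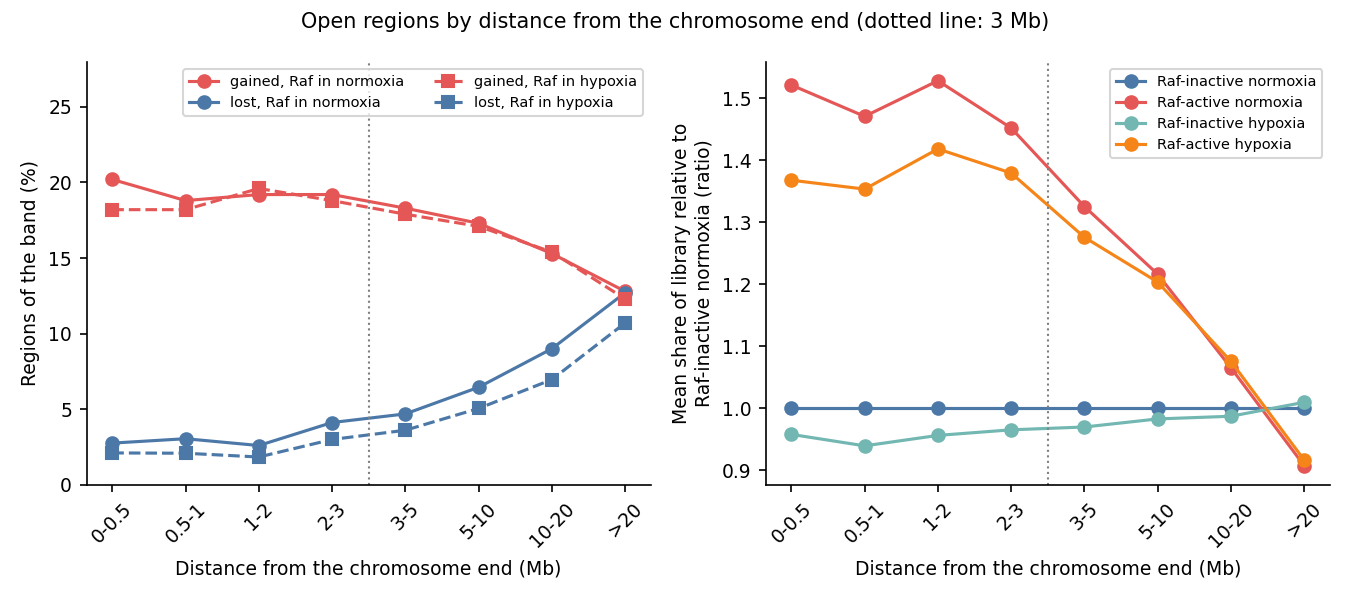
Percent of regions gained and lost with Raf (left) and the mean share of each group relative to Raf-inactive normoxia (right) against the distance from the chromosome end in Mb. Points are bands of distance and the dotted line marks 3 Mb, and lost regions rise from 2.76% in the outer 0.5 Mb to 12.7% beyond 20 Mb in normoxia.

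The ends are rich in genes, and gene number moved with the result. Subtelomeric regions lay in 1 Mb bins with a mean of 17.7 protein-coding genes, and the remaining regions in bins with 9.4. Within bins of 12 or more genes, 21% of 10944 subtelomeric and 18.1% of 73509 remaining regions were gained with Raf in normoxia, and 1.75% and 5.21% were lost. In bins of 0 or 1 gene, 16.6% of 664 subtelomeric and 9.55% of 25744 remaining regions were gained, and 6.33% and 18.7% were lost. In each of the 5 classes of gene number and in both oxygen states, the subtelomeric set had the higher gained and the lower lost percentage. Within bins of 12 or more genes the subtelomeric share still rose, by 2.60 percentage points in normoxia and by 2.29 in hypoxia (exact permutation p = 0.0286 for both). There the change with hypoxia in Raf-inactive cells was -0.266 points and did not pass the exact test (p = 0.0571). GC content of the regions was not tested, since no genome sequence was used here.

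**Figure D3:**
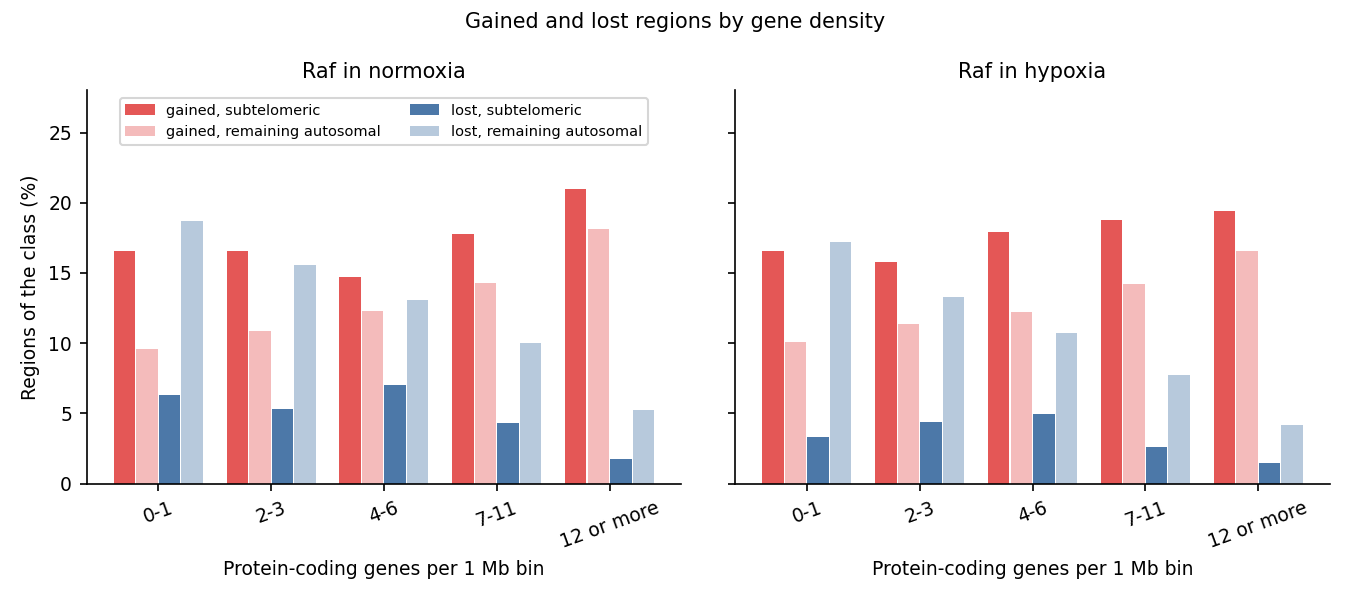
Percent of regions gained (red) and lost (blue) with Raf in normoxia (left) and hypoxia (right) in 5 classes of protein-coding genes per 1 Mb bin. Full colour marks subtelomeric and pale colour the remaining autosomal regions, and in bins of 12 or more genes 21% of the subtelomeric regions were gained in normoxia against 18.1% of the rest.

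The chromosome ends did not all move together. Each autosome was divided into its outer 3 Mb and interior windows of 3 Mb, the peaks of each library were scaled to the same total, and log2 of scaled peaks plus 1 was fitted with limma over 894 windows. A value called here has a limma adjusted p below 0.05. With Raf in normoxia 33 of 39 ends rose, 84.6%, where 34.3% of all windows did, and 5 fell, where 59.1% of all windows did. In hypoxia 34 rose, where 38% of all windows did, and 4 fell, where 54.1% did. The median change over the ends was 0.63 and 0.50 on the log2 scale, and over all windows it was -0.20 and -0.14. Of the 39 ends, 33 rose in both oxygen states and 3 fell in both, and the same overlap was not counted over all windows.

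The end of the long arm of chromosome 2 rose most, with 289, 275, 295 and 293 scaled peaks without Raf and 565, 532, 531 and 510 with it in normoxia. In hypoxia it had 259, 256, 231 and 249 without Raf and 500, 493, 503 and 503 with it. The log2 change was 0.89 ± 0.04 (SE) in normoxia and 1.00 ± 0.04 in hypoxia (limma adjusted p = 3.55e-13 and 1.82e-13). The end 14q was next in normoxia, at 0.88 ± 0.04, and had 0.75 ± 0.04 in hypoxia. The end 7p was next in hypoxia, at 0.91 ± 0.03, and had 0.84 ± 0.03 in normoxia.

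The end of the short arm of chromosome 9 had the largest fall of the 39 ends in normoxia. It had 164, 172, 170 and 165 scaled peaks without Raf and 87.8, 95, 100 and 97.9 with it in normoxia, a change of -0.81 ± 0.04 on the log2 scale (limma adjusted p = 1.01e-11). In hypoxia it had 183, 187, 169 and 164 without Raf and 139, 135, 136 and 142 with it, a change of -0.34 ± 0.04 (limma adjusted p = 8.6e-07). With peaks of fold at least 5 that second fall was -0.01 and did not pass. Hypoxia raised 9p in Raf-active cells by 0.53 ± 0.04, and the difference between the 2 Raf effects was 0.47 ± 0.06 (limma adjusted p = 5.12e-08 and 2.08e-05). Of its 237 regions 53 were lost with Raf in normoxia and 12 were gained.

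The ends 3p and 4q fell in both oxygen states, by 0.48 and 0.49 at 3p and by 0.27 and 0.29 at 4q on the log2 scale (each with an SE of 0.06 and 0.04). They hold 5 and 6 protein-coding genes, where the median end holds 38. Without scaling to a common total the falls at 4q were not called, at -0.10 and -0.06, and with peaks of fold at least 5 it rose by 0.13 in normoxia. The smaller falls of 8p and 1q in normoxia and of 18p in hypoxia, at -0.19, -0.16 and -0.14 on the log2 scale, were also not called without scaling, where they were -0.01, 0.01 and 0.08, and with peaks of fold at least 5 those of 8p and 18p were -0.06 and -0.07 and did not pass. At 8p Raf lowered scaled peaks in normoxia and raised them by 0.18 ± 0.05 in hypoxia, a difference of 0.37 ± 0.06 (limma adjusted p = 0.000233). Over the 39 ends the change in normoxia and the number of protein-coding genes had a Spearman rho of 0.54 and a Pearson r of 0.43, and in hypoxia 0.29 and 0.23. These points share the same 8 libraries, and the part of gene number in the differences between ends was not tested.

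**Figure D4:**
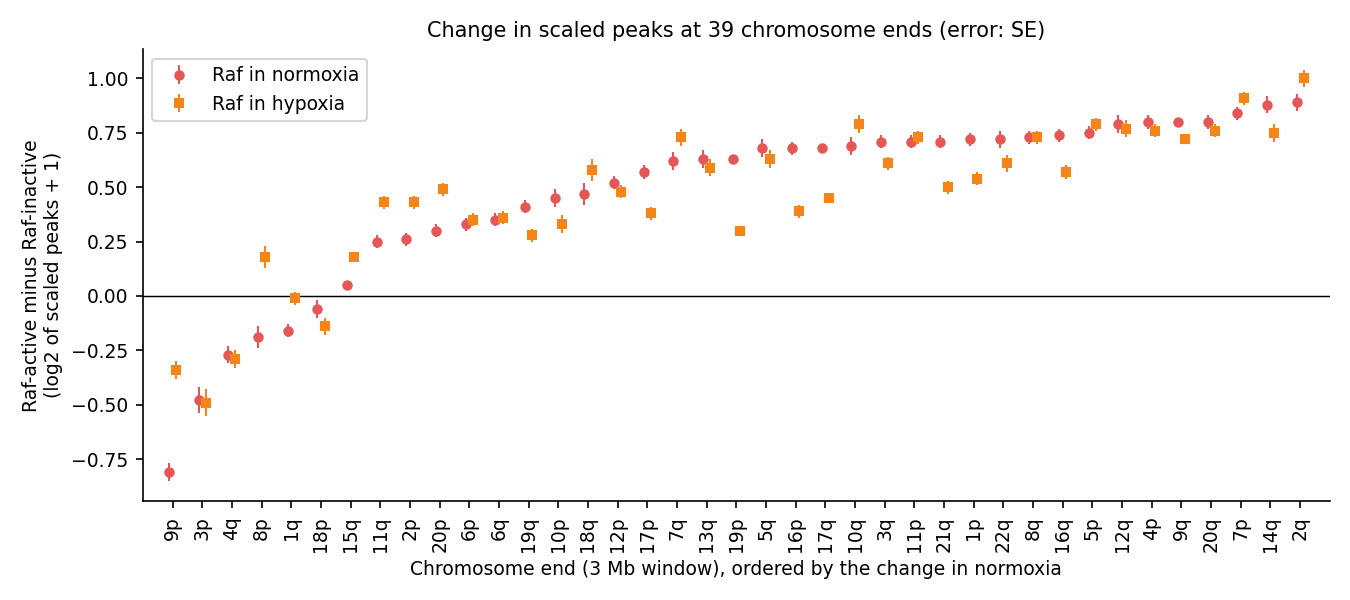
Change in scaled peaks with Raf at the 39 chromosome ends in normoxia (circles) and hypoxia (squares), on the log2 scale of scaled peaks plus 1. Error bars are SE from limma, and the ends run from 9p at -0.81 to 2q at 0.89 in normoxia.

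Hypoxia changed fewer ends. In Raf-inactive cells 2 of 39 ends rose, where 18.7% of all windows did, and 14 fell, where 13% did. In Raf-active cells 8 rose, where 44.5% of all windows did, and 21 fell, where 24.9% did. The largest falls among the 39 ends with hypoxia in Raf-active cells were at the gene-dense ends 19p, at -0.36 ± 0.02, and 16p, at -0.34 ± 0.03. The effect of Raf differed between the oxygen states at 16 ends. It was more positive in hypoxia at 7, where 29.1% of all windows were, and more negative at 9, where 18.5% were. Without scaling these were 8 and 6, and the ends called for hypoxia in Raf-inactive cells were then 16 falls. Among peaks of −log10 q at least 5, 10 ends were called there. With peaks of fold at least 5 the differences at 19p and 16p, -0.33 and -0.29, were -0.09 and -0.07 and did not pass. Leaving out 1 library moved the 16 ends called for hypoxia in Raf-inactive cells to between 8 and 14, with 8 when replicate 2 of Raf-inactive normoxia was left out, 9 when replicate 3 was and 9 when replicate 3 of Raf-inactive hypoxia was.

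Genes were examined as loci, the gene body with 10 kb on each side, again as log2 of scaled peaks plus 1, which counts peaks and not reads, fitted with limma over 14817 loci. Of 1807 subtelomeric protein-coding genes 1381 had a mean of at least 3 scaled peaks and were tested, and 426 did not. With Raf in normoxia 804 rose, 58.2%, where 37.2% of all loci did, and 85 fell, where 25.9% did. In hypoxia 691 rose, where 33.7% of all loci did, and 126 fell, where 26.6% did. The median change was 0.35 and 0.28 on the log2 scale, where it was 0.10 and 0.06 over all loci. Both oxygen states raised 593 loci, 73.8% of those in normoxia and 85.8% of those in hypoxia, and both lowered 51, which is 60% and 40.5%. The same overlap was not counted over all loci, so these shares show nothing particular to the ends. Neighbouring windows overlap at these dense ends, and the 804 loci formed 349 separate stretches. Peaks of fold at least 5 alone gave 409 rises and 75 falls in normoxia and 381 and 80 in hypoxia, and without scaling the counts were 1114 and 29, and 1021 and 29. Shares over all loci were kept for the main setting only, so counts at other settings cannot be set against them. Raf-active libraries list more peaks, which the counts without scaling do not take into account.

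The minimum of 3 scaled peaks is a mean over all libraries, so a locus could pass it through the group where it was high, and such a locus had to differ. Of the 804 loci that rose in normoxia 178, or 22.1%, had a mean under 3 without Raf, as had 17.5% of all loci that rose. In hypoxia 183 of 691 did, 26.5%, and 20.1% of all. The largest fitted rises come mainly from such loci: 7 of the 8 named for normoxia and 6 of the 8 for hypoxia had means under 3 in both Raf-inactive groups. Their values are given as a description of these libraries.

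TERT, the reverse transcriptase subunit of telomerase on 5p at chr5:1253167-1295068, headed the fitted rises in normoxia and is one of the loci that passed through the Raf-active groups. It had 0, 0, 1.08 and 2.13 scaled peaks without Raf and 9.77, 13.2, 8.51 and 8.82 with it in normoxia. In hypoxia the values were 0, 1.12, 1.15 and 1.12 without Raf and 7.46, 9.49, 8.19 and 8.44 with it. The fitted log2 change was 2.77 ± 0.31 and 2.41 ± 0.31. It is a description only, since the locus met the minimum through the groups where it was high. CHRNA4, a nicotinic acetylcholine receptor subunit on 20q, had at most 1.08 scaled peaks without Raf in normoxia and 3.52 to 7.11 with it, and it rose by 2.42 ± 0.26. TSPEAR on 21q, which passed in both Raf states, had 4.33 to 8.53 without and 25.5 to 26.6 with Raf and rose by 2.01 ± 0.21. TAFA5, a secreted chemokine-like protein gene on 22q, had 2.13 to 3.25 without and 13.2 to 14.1 with Raf and rose by 2.00 ± 0.13.

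The other loci of the 8 largest rises in normoxia were MSANTD5 at 2.12 ± 0.14, the mucin gene MUC8 at 2.04 ± 0.27, LY6H of the Ly6 family at 1.98 ± 0.38 and IDI2, an isopentenyl diphosphate isomerase gene, at 1.88 ± 0.21. These low loci had means of 1.09 scaled peaks or fewer without Raf, so the pseudocount of 1 sets part of their change. IDI2 listed no peak in the 4 Raf-inactive hypoxia libraries and 5.46 to 6.57 scaled peaks in the 4 Raf-active ones. In hypoxia AQP12B, an aquaporin gene on 2q, likewise listed none without Raf and had a mean of 6.27 ± 1.97 (SD, n = 4) with it. Its mean over the 4 groups was 3.02, just above the minimum. The gel-forming mucin MUC6 had a mean of 0.28 ± 0.56 without Raf and 7.69 ± 0.819 with it in hypoxia. Rises in hypoxia were also among the largest for the palmitoyltransferase gene ZDHHC11 on 5p at 2.65 ± 0.24, the homeobox gene UNCX on 7p at 2.31 ± 0.35 and MTERF4, a mitochondrial ribosome factor on 2q, at 2.10 ± 0.11.

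Of the 8 largest falls in normoxia 4 were on 9p. SMARCA2, the BRM ATPase of the SWI/SNF remodelling complex at chr9:2015347-2193620, had 26, 30.6, 31.4 and 32 scaled peaks without Raf and 6.22, 6.16, 6.62 and 7.06 with it in normoxia. In hypoxia it had 27.8, 28, 21.8 and 21.3 without Raf and 8.39, 8.54, 8.19 and 10.3 with it. It fell by 2.04 ± 0.10 and by 1.38 ± 0.10 on the log2 scale (limma adjusted p = 7.91e-11 and 1.03e-08). DOCK8, an exchange factor for small GTPases known from immune cells at chr9:211257-465255, had 9.73, 8.73, 9.75 and 8.53 without Raf and 0.888, 0.88, 0.946 and 0.882 with it in normoxia. It fell by 2.42 ± 0.14 in normoxia and by 0.94 ± 0.14 in hypoxia, where Raf-active libraries kept 3.8 to 5.63 scaled peaks. The difference between those effects was 1.49 ± 0.19 (limma adjusted p = 0.00012). PUM3, an RNA-binding protein gene, fell by 1.51 ± 0.10 and 1.41 ± 0.10, and KCNV2, a potassium channel modifier, fell by 0.76 ± 0.09 and 0.92 ± 0.09. PUM3 and KCNV2 had means under 3 scaled peaks in each Raf-active group, and DOCK8 had one in Raf-active normoxia.

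Away from 9p, the adhesion gene CNTN4 on 3p fell by 1.12 ± 0.11 in normoxia and 1.16 ± 0.11 in hypoxia. NDC80, a kinetochore subunit gene on 18p, fell by 1.17 ± 0.13 in normoxia, LINS1 on 15q by 0.95 ± 0.15 and TDRP on 8p by 0.85 ± 0.11. In hypoxia the methyltransferase gene METTL4 on 18p fell by 0.97 ± 0.13, the stress gene GADD45B on 19p by 0.84 ± 0.14 and RHNO1, a checkpoint factor on 12p, by 0.83 ± 0.12. Among peaks of fold at least 5 the fall of RHNO1 was -0.22 and did not pass. METTL4 had means under 3 scaled peaks in each Raf-active group, and NDC80 and LINS1 had one in Raf-active normoxia.

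**Figure D5:**
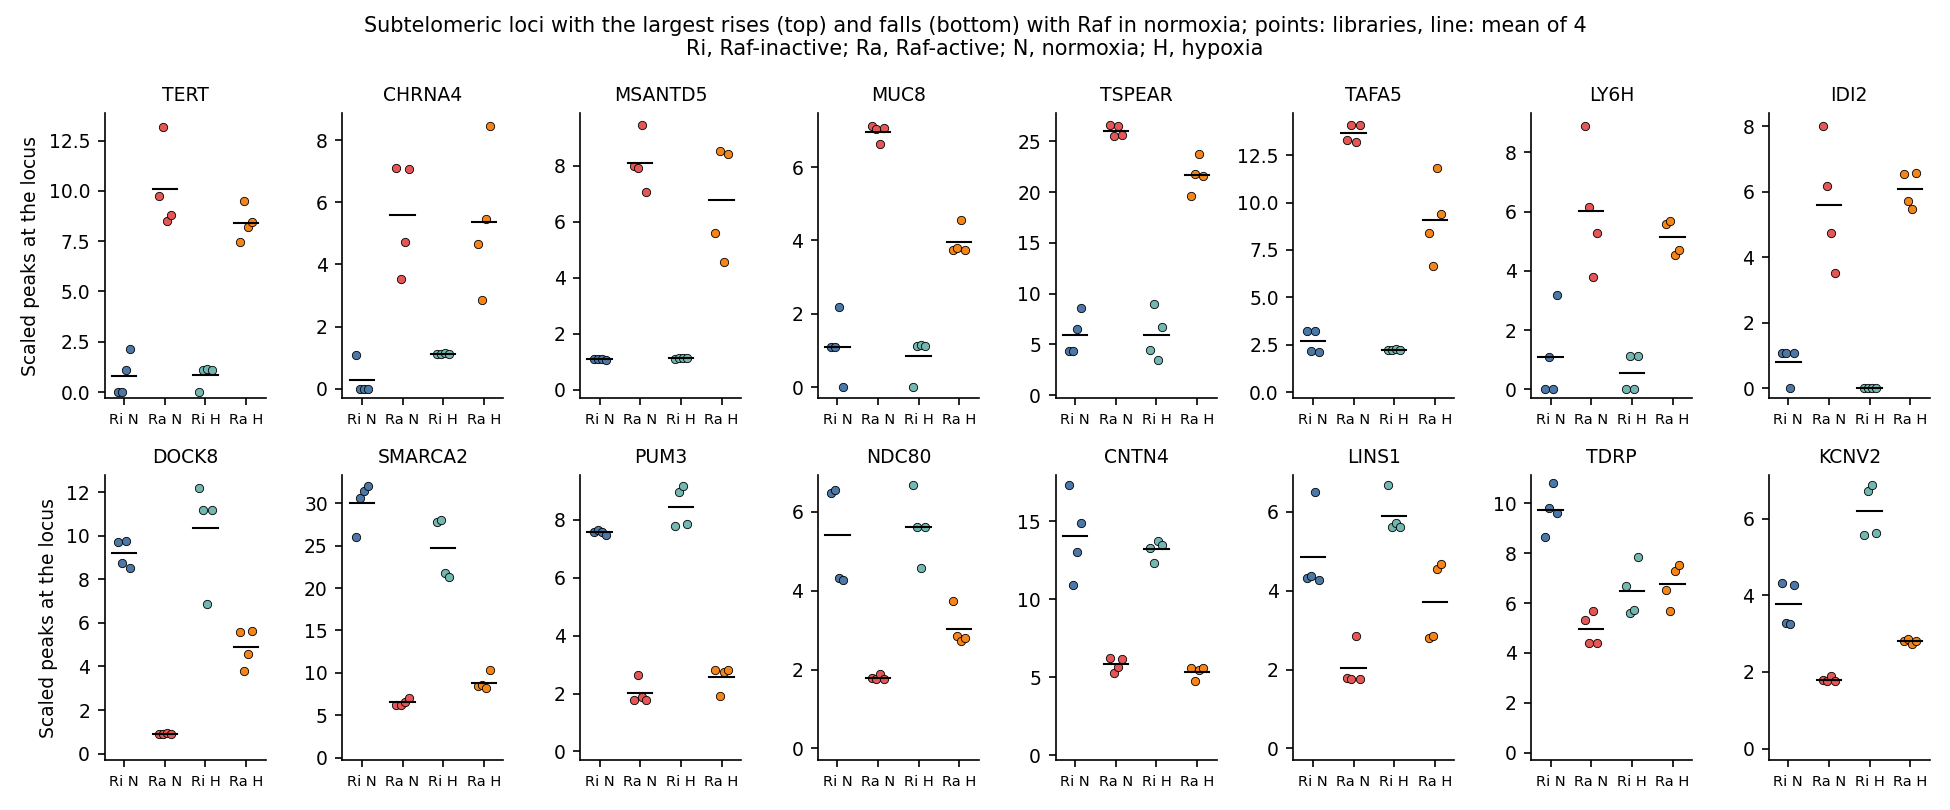
Scaled peaks in each library at the 8 subtelomeric loci with the largest rises (top) and the 8 with the largest falls (bottom) with Raf in normoxia. Points are libraries, lines the mean of 4, and Ri, Ra, N and H mark Raf-inactive, Raf-active, normoxia and hypoxia. TERT goes from at most 2.13 to at least 8.51 in normoxia and SMARCA2 from at least 26 to at most 7.06.

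Counts for gene lists stand against the shares over all 1381 tested subtelomeric loci, of which 58.2% rose and 6.15% fell in normoxia, against 50% and 9.12% in hypoxia. Over all 14817 loci 37.2% rose and 25.9% fell in normoxia, with 33.7% and 26.6% in hypoxia. A list near the subtelomeric shares shows nothing of its own, and no list was tested against them. The counts of rises can include loci that met the minimum through the Raf-active groups only. The telomere biology list also holds CLPTM1L, which is counted in it as the neighbour of TERT. Of its 5 tested genes 4 rose in normoxia, while in hypoxia 3 did and 1 fell. TERT is counted among those that rose, although it met the minimum through the Raf-active groups only. Beside TERT these were RAD52, a recombination protein gene on 12p, at 0.78 ± 0.08 and 0.40 ± 0.08, and POLE, the catalytic subunit of DNA polymerase epsilon on 12q, at 0.99 ± 0.13 and 0.72 ± 0.13. CLPTM1L, the neighbour of TERT, rose by 0.51 ± 0.14 in normoxia and did not pass at a matched background, at 0.16, at equal list length, at 0.24, or with regions in place of peaks, at 0.26. The helicase gene RTEL1 on 20q fell by 0.32 ± 0.08 in hypoxia, but it rose by 0.43 with peaks of fold at least 5. Its fall did not pass at a matched background, at -0.13, at equal list length, at -0.12, or without scaling, at -0.08. Among peaks of fold at least 5 POLE did not pass in normoxia, at 0.01, nor RAD52 in hypoxia, at 0.21. The median of the list was 0.78 in normoxia, where the tested subtelomeric loci had 0.35 and all loci had 0.10. It covers 5 genes, with TERT and CLPTM1L among them.

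Of 15 chromatin regulators at these ends 9 rose and 1 fell in normoxia, against 7 and 2 in hypoxia, close to the shares of all subtelomeric loci. EHMT1, a histone H3 lysine 9 methyltransferase gene on 9q, had 31.4, 30.6, 30.4 and 32 scaled peaks without and 45.3, 41.3, 37.8 and 40.6 with Raf in normoxia, a rise of 0.40 ± 0.07. In hypoxia it had 20, 17.9, 17.2 and 16.8 without and 36.4, 38, 38.2 and 36.6 with Raf, a rise of 1.01 ± 0.07. The difference of 0.62 ± 0.10 passed (limma adjusted p = 0.000715). DOT1L, a histone H3 lysine 79 methyltransferase gene, rose by 0.95 ± 0.08 and 0.42 ± 0.08, and NSD2, a lysine 36 methyltransferase gene, by 0.73 ± 0.08 and 0.54 ± 0.08. The deacetylase gene HDAC4 rose by 0.34 ± 0.07 and 0.49 ± 0.07. With peaks of fold at least 5, NSD2 had -0.02 in normoxia and HDAC4 0.03 in hypoxia. At equal list length the rise of HDAC4 in normoxia did not pass, at 0.15. SMARCA2 was the 1 that fell in normoxia.

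The signalling lists are short, and most of their members that moved rose, as did most subtelomeric loci that moved. In the RAF-MAPK and growth factor list 6 of 10 tested rose in normoxia, while hypoxia had 5 higher and 1 lower. The stress kinase gene MAPK9 on 5q rose by 1.11 ± 0.10 and 1.42 ± 0.10, and the kinase gene AKT1 on 14q by 0.31 ± 0.09 and 0.26 ± 0.09. With peaks of fold at least 5 AKT1 instead fell by 0.30 and 0.38. Its rise in hypoxia did not pass without replicate 2 of Raf-inactive hypoxia, at 0.20, or replicate 1 or 2 of Raf-active hypoxia, at 0.23, or with peaks of −log10 q at least 5, at 0.15. Of 6 NOTCH pathway genes 4 rose in normoxia, while hypoxia had 3 higher and 1 lower. The receptor gene NOTCH1 on 9q had 6.49, 5.46, 6.5 and 6.4 scaled peaks without and 16, 15.8, 16.1 and 16.8 with Raf in normoxia, a rise of 1.25 ± 0.08. In hypoxia the rise was 0.57 ± 0.08. With peaks of fold at least 5 neither passed, at -0.04 and 0.05. Of 5 TNF receptor family genes 4 rose in normoxia, while hypoxia had 2 higher and 1 lower. Of 10 cell cycle and tumour suppression genes 5 rose and 1 fell in normoxia, against 6 and 2 in hypoxia, with TSC2 of the TSC complex on 16p at 0.88 ± 0.13 and 1.23 ± 0.13 and the E protein gene TCF3 on 19p at 1.18 ± 0.12 and 0.97 ± 0.12.

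Secreted mucins on 11p rose at 4 of 4 loci in normoxia and at 3 in hypoxia. MUC6 is among those that rose, although it met the minimum through the Raf-active groups only. MUC5B rose by 0.71 ± 0.11 and 1.17 ± 0.11 and MUC2 by 0.67 ± 0.15 and 1.29 ± 0.15, and with peaks of fold at least 5 the rises of MUC2 did not pass, at 0.33 and 0.41. Of 11 fibroblast matrix genes 5 rose in each oxygen state, and the list's median was 0.23 and 0.21. They included the collagen gene COL23A1 on 5q at 1.12 ± 0.13 and 1.46 ± 0.13 and COL18A1 on 21q at 0.41 ± 0.10 and 0.76 ± 0.10, of which the latter did not pass in hypoxia with peaks of fold at least 5, at 0.10. COL6A1 and COL6A2, collagen VI genes on 21q, had changes of 0.15 ± 0.13 and 0.18 ± 0.10 in normoxia that did not pass.

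Genes of neural adhesion and synapses went both ways, with 3 of 7 tested higher and 3 lower in normoxia and 5 higher and 2 lower in hypoxia. PTPRN2, a receptor phosphatase gene of secretory granules on 7q, had 16.2, 18.6, 15.2 and 18.1 scaled peaks without and 61.3, 53.7, 44.5 and 42.4 with Raf in normoxia. In hypoxia it had 13.3, 13.4, 13.7 and 11.2 without and 55, 57, 52.8 and 57.2 with Raf. The rises were 1.50 ± 0.11 and 2.02 ± 0.11 (limma adjusted p = 3.33e-09 and 2.39e-10). CHL1, an adhesion gene also on 3p, fell by 0.61 ± 0.10 and 0.34 ± 0.10, the second not called without scaling, at -0.09.

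Zinc finger genes, many of them repressors of transposons, rose at 30 of 57 tested loci and fell at 4 in normoxia, with 20 and 4 in hypoxia. The risen shares are below those of all subtelomeric loci. Their median was 0.26 and 0.13. ZNF354A on 5q rose by 1.67 ± 0.12 and 1.55 ± 0.12, and ZNF707 on 8q by 1.70 ± 0.10 and 1.82 ± 0.10, each from about 1 scaled peak without Raf. Both thus met the minimum through the Raf-active groups, and their values are a description only. Keratin-associated protein genes rose at 4 of 5 tested loci in normoxia and 3 in hypoxia, with 22 at the ends. Olfactory receptor genes had too few peaks, with 5 of 59 tested, of which 1 rose and 2 fell in normoxia, against 1 and 1 in hypoxia. The 4 mast cell tryptase genes and the 7 genes of duplicated families with near-identical copies had too few peaks to be tested. Reads from such copies can be discarded or placed on either copy, and how the authors treated them is not given in the sources used here.

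The other lists were mixed. In normoxia the alpha-globin cluster had 1 of 6 higher and 2 lower, imprinted 11p15 genes 3 of 7 higher and 1 lower, and interferon response genes 3 of 5 higher. Of the Ly6 family 2 of 6 were higher, of neutrophil granule genes 1 of 3, of Iroquois genes 1 of 2, and of metabolism and housekeeping genes 2 of 8 with 1 lower. The 3 forkhead genes and 3 serpins of 6p25 had medians of 0.08 and 0.22 on the log2 scale. Of the reporters of telomere length in the literature, 2 lay at these ends, TERT, which rose, and the interferon gene ISG15, at 0.10 ± 0.11 in normoxia and 0.15 ± 0.11 in hypoxia. LMNB2, a lamin gene and the 1 nuclear lamina gene at the ends, fell by 0.48 ± 0.10 in normoxia (limma adjusted p = 0.000617). In hypoxia LMNB2 was at -0.24 ± 0.10, the alpha-globin cluster had 3 of 6 lower, forkhead genes 2 of 3 lower, imprinted genes 2 higher and 1 lower, interferon genes 2 higher, and serpins 1 higher and 1 lower. Also in hypoxia 2 of 6 Ly6 genes, 1 of 3 neutrophil granule genes, 1 of 2 Iroquois genes and 1 of 8 metabolism and housekeeping genes rose, and 1 of the last fell.

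Hypoxia called 72 subtelomeric loci higher in Raf-inactive cells, where 6.11% of all loci were, and 101 lower, where 6.76% were. In Raf-active cells 68 were higher, where 12.9% of all loci were, and 219 were lower, where 14.2% were. Without Raf 19 of the 72 and 33 of the 101, 26.4% and 32.7%, had a mean under 3 in the lower group. Of all loci called higher or lower there, 16.2% and 26.3% did. With Raf 10 of the 68 and 18 of the 219 did, 14.7% and 8.22%, where 19.8% and 12% of all loci called did. In Raf-inactive cells UTF1, a transcription factor gene of embryonic stem cells on 10q, rose by 1.02 ± 0.15, although not at a matched background, at 0.41, or with peaks of −log10 q at least 5, at 0.44. SLC22A31 on 16q rose by 0.98 ± 0.12 and had 0.00 with peaks of fold at least 5, the homeobox gene MNX1 on 7q rose by 0.89 ± 0.18 and the kisspeptin receptor gene KISS1R on 19p by 0.83 ± 0.13. With only the 2 groups compared in the fit MNX1 did not pass (limma adjusted p = 0.0597). The largest falls were at EPPK1, an epiplakin gene on 8q, by 1.21 ± 0.16, PPP1R2, a phosphatase inhibitor gene on 3q, by 1.02 ± 0.13, ANO7 on 2q by 0.93 ± 0.15 and MOB2, a kinase regulator gene on 11p, by 0.89 ± 0.13. EPPK1 was -0.57 with peaks of −log10 q at least 5 and ANO7 was -0.14 with peaks of fold at least 5, and neither passed. Without scaling 40 loci were higher and 142 lower in Raf-inactive cells, and leaving out replicate 3 of Raf-inactive hypoxia reduced the 173 loci called to 114. With only the groups compared in the fit 80 were called, and with peaks of fold at least 5 the 287 in Raf-active cells were 178.

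In Raf-active cells hypoxia raised DOCK8 by 1.62 ± 0.14, RAD21L1, a meiotic cohesin gene on 20p, by 1.13 ± 0.17, DMRT3 on 9p by 1.00 ± 0.16 and the syntrophin gene SNTG2 on 2p by 0.95 ± 0.09. SNTG2 had 7.99, 10.6, 7.57 and 8.82 scaled peaks in normoxia and 17.7, 18, 19.1 and 15.9 in hypoxia with Raf. Without Raf it had 14.1 to 14.9 and 14.6 to 16. The casein kinase gene CSNK1G2 on 19p fell most, by 1.24 ± 0.12, from 7.99, 10.6, 8.51 and 7.06 to 3.73, 2.85, 2.73 and 2.81. ZNF8 on 19q fell by 1.00 ± 0.10, SCX, a transcription factor gene of tendon on 8q, by 0.92 ± 0.13 and CANX, an endoplasmic reticulum chaperone gene on 5q, by 0.88 ± 0.13.

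The effect of Raf was higher in hypoxia than in normoxia at 61 subtelomeric loci, where it was at 8.93% of all loci, and lower at 116, where it was at 9.14%. Counting merged regions in place of peaks called 279 loci where these were 177. DOCK8 led the first set, followed by MUC6 at 1.12 ± 0.34, the synapse gene DLGAP2 on 8p at 1.11 ± 0.27 and RSPO4, a Wnt agonist gene on 20p, at 1.09 ± 0.32. MUC6 met the minimum through the Raf-active groups only, with means of 1.35 and 0.28 scaled peaks without Raf in normoxia and hypoxia. Its value is therefore a description only, and the pseudocount of 1 sets part of it. The difference at MUC6 (limma adjusted p = 0.0316) did not pass when any 1 of 7 libraries was left out, with 0.89 to 1.09, namely replicate 2 of Raf-inactive normoxia, replicate 3 of Raf-active normoxia, replicates 1, 3 and 4 of Raf-inactive hypoxia and replicates 1 and 3 of Raf-active hypoxia. It was 1.03 without scaling and did not pass. That at RSPO4 (limma adjusted p = 0.0278) did not pass without replicate 1, 3 or 4 of Raf-inactive normoxia, replicate 4 of Raf-active normoxia or replicate 1 of Raf-active hypoxia, with 0.99 to 1.04, nor at equal list length, at 0.92, nor with peaks of fold at least 5, at 0.32. SEC16A, a gene of endoplasmic reticulum exit sites on 9q, led the second set at -1.21 ± 0.17, followed by FAM83H on 8q at -1.17 ± 0.13, ZNF8 at -1.15 ± 0.15 and CSNK1G2 at -1.06 ± 0.17. ZNF8 rose with Raf in normoxia, by 0.64 ± 0.10, and fell in hypoxia, by 0.51 ± 0.10.

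Single regions showed these changes at full strength. A region in EHMT1 at chr9:137688584-137689213, 0.493 Mb from the end of the chromosome, had no peak in the 8 Raf-inactive libraries and a peak in all 8 Raf-active ones. Its mean fold enrichment in the authors' files was 15.9 in normoxia and 17.2 in hypoxia. A region 3358 bp from CLK4, a splicing kinase gene, at chr5:178630409-178631296 showed the same presence, with a mean fold of 10.2 and 11.1. A region in GAL3ST2 at chr2:241788225-241789112, 0.358 Mb from the end, was gained in normoxia at a mean fold of 21.1 and had a peak in 1 of 4 Raf-inactive hypoxia libraries. In the opposite direction, a region in EP400, a chromatin remodeller gene on 12q, at chr12:132003571-132004301 had a peak in all 8 Raf-inactive libraries, at a mean fold of 17 in normoxia and 19.4 in hypoxia, and in no Raf-active one. A region in PUM3 at chr9:2809480-2810524 was lost in normoxia and had a peak in 3 of 4 Raf-active hypoxia libraries. A region in JAM3, a junction adhesion gene on 11q, at chr11:134100644-134101723 was lost in normoxia and kept in all 4 Raf-active hypoxia libraries.

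In both Raf states with hypoxia, a region within 1 kb of an end of ASCL2, a basic helix-loop-helix factor gene on 11p, at chr11:2270449-2271394 appeared in all 8 hypoxia libraries and in no normoxia library. In Raf-inactive cells a region in DMRT1 at chr9:961805-962566 was gained with hypoxia at a mean fold of 15.3, and it also had a peak in all 4 Raf-active libraries of either oxygen state. A region in SPON2, a secreted matrix protein gene on 4p, at chr4:1179976-1180357 had a peak in the 4 Raf-active normoxia libraries only, at a mean fold of 5.65. These regions were named by the mean rank of the authors' p-values within each library's list.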

How the data were processed

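ATAC-seq peak lists of 16 libraries, 4 in each of 4 groups given by the labels, were analysed. Per the submitters' processing notes, the authors used the aligner Bowtie2 and the peak caller MACS2 with the genome build hg38, and also FastQC, cutadapt, SAMtools, Picard, bedtools and deepTools, and settings and versions are not given in the sources used here. Each deposited list is of 1 library and gives the authors' peak score, fold enrichment over local background, −log10 p-value and −log10 q-value for each peak. Lines that repeat a peak with another summit were counted once. Read depth is not in the files used here.

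Peaks were merged into regions, and gene positions and promoter sequences came from RefSeq. Single values were compared by two-sided exact permutation tests over libraries, and windows and loci by limma 3.58.1 (R 4.3.3) on log2(scaled peaks + 1) with Benjamini-Hochberg adjustment, over windows with a mean of at least 10 and loci with a mean of at least 3 scaled peaks. All 4 groups shared 1 estimate of the spread, and the script was tested on simulated data. Python 3.11.15 and scipy 1.17.1 were used. Peak counts are not read counts, so a strong and a weak peak weigh the same. No pair of libraries had a Jaccard index of regions above 0.852, so none was a copy of another. The labels name no batch.

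Named loci were the 8 largest rises and 8 largest falls for each Raf comparison and the 4 and 4 for each other, taken from loci that were called and had no overlap of groups (called only for the interaction), skipping overlapping ones. Named regions were the 3 or 2 per list with the highest mean rank. From the fixed lists, members other than those of telomere biology and the first 4 of a list were picked after their values were seen. The members and lists were chosen with earlier results of these data known. Alternatives changed the peak threshold, list length, end width, overlap, gene density, scaling, pseudocount, filter, fit and replicate block, or left out 1 library. A matched background and scaling outside the ends were added after seeing the data.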

Additional observations from a re-analysis of the deposited data

Results flagged for a closer look

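In 9 of 164 groups of 4 libraries, 1 library lay apart from the other 3 in the scaled peaks of a chromosome end by Dixon's criterion. Chance alone gives about 1 in 20 such groups. In Raf-inactive hypoxia replicate 1 stood apart at 1q, with 176 where the others had 190 to 192, at 11q, with 149, and at 18q, with 122, and replicate 4 at 2p, with 128, and at 16p, with 312. In Raf-inactive normoxia replicate 1 stood apart at 8p, with 117, and at 20q, with 320. In Raf-active normoxia replicate 1 stood apart at 7p, with 628 where the others had 574 to 583, and replicate 3 at 11q, with 181.

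The effect of Raf differed between normoxia and hypoxia at 16 ends by the interaction term in limma. On the log2 scale it was lower in hypoxia at 19p by -0.33, 16p by -0.29, 17q by -0.23, 21q by -0.20, 17p and 1p by -0.19 each, 16q by -0.18, 19q by -0.13 and 9q by -0.08. It was higher in hypoxia at 9p by 0.47, 8p by 0.37, 11q and 20p by 0.19 each, 2p by 0.17, 1q by 0.15 and 15q by 0.13. Among single loci the same test called 61 with a higher and 116 with a lower effect of Raf in hypoxia.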

How the results depend on the processing

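The share of subtelomeric regions kept its direction in all 4 comparisons under every alternative. Within bins of 12 or more genes the fall with hypoxia in Raf-inactive cells was -0.2657 points and did not pass (exact permutation p = 0.0571, the smallest p is 0.0286 there). Leaving out 1 library gave 2.299 to 2.447 and 2.06 to 2.088 points for Raf in normoxia and hypoxia, and -0.2227 to -0.1941 and -0.5808 to -0.4334 for hypoxia in Raf-inactive and Raf-active cells. With fold at least 5, regions gained with Raf were 1464 and 1363, and lost with hypoxia 140 and 330. With at least 3 of 4 against at most 1 of 4 libraries, gained and lost were 5571 and 907 for Raf in normoxia, 5017 and 697 in hypoxia, 477 and 727 for hypoxia in Raf-inactive and 1107 and 1810 in Raf-active cells. For hypoxia in Raf-inactive cells, 16 ends became 10 with −log10 q at least 5 and 8 to 14 without 1 library, and 173 loci became 80 with only the groups compared and 114 to 154 without 1 library. With fold at least 5, loci called were 484 and 461 for Raf and 178 for hypoxia in Raf-active cells, and regions in place of peaks gave 279 for the difference between Raf effects. Fewer peaks are left with fold at least 5, and the cause of the other changes was not tested. Shares over all windows and loci were kept for the main setting only.

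With fold at least 5 the sign turned at NSD2, to -0.02, and NOTCH1, to -0.04, in normoxia, at AKT1, to -0.30 and -0.38, at RTEL1 in hypoxia, to 0.43, and at the end 4q in normoxia, to 0.13. Without scaling it turned at 1q in normoxia, to 0.01, and at 18p in hypoxia, to 0.08. Of 123 named gene and end values, 31 changed their call or sign under any alternative.

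Same-numbered libraries had correlations of -0.00719 to 0.00184 in their deviations, and libraries of other numbers -0.00692 to 0.0111. These values showed no pairing by number, but they cannot tell whether same-numbered libraries were prepared together, which the labels do not say. With the number as a replicate block the shares were 2.382, 2.077, -0.2116 and -0.5161 points with an exact p of 0.125, the smallest that 4 pairs allow. The ends called were then 37, 38, 13, 29 and 16 and the loci 880, 810, 159, 256 and 164 for the 2 Raf comparisons, the 2 hypoxia comparisons and their interaction.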
